A study of Mus musculus with 672 samples.

Results

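The nuclear genes of the mitochondrial respiratory chain were followed in single lymphoid progenitors sorted from mouse bone marrow. The set was defined by symbol: every protein-coding gene of the deposited count table whose name begins with Nduf, Uqcr, Sdha to Sdhd, Cox4 to Cox8 or Atp5, without Cox6a2 and without pseudogenes. This gave 96 of the 46078 genes in the table, after 15 of 111 matching symbols had been left out, 12 of them processed pseudogenes. By their names 38 genes belong to complex I, 4 to complex II, 8 to complex III, 17 to complex IV and 17 to ATP synthase. The other 12 (Ndufaf1 to Ndufaf8 and Sdhaf1 to Sdhaf4) encode assembly factors, which the rule takes in although they are not subunits, and they are described separately. Cyc1, the cytochrome c1 subunit of complex III, and Usmg5, a small ATP synthase protein, have other symbols and fall outside.

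The respiratory chain sits in the inner mitochondrial membrane. Complex I takes electrons from NADH and complex II from succinate, complex III passes them to cytochrome c, and complex IV hands them to oxygen. Complexes I, III and IV pump protons, and ATP synthase lets the protons return and makes ATP. Most subunits are encoded in the nucleus and a smaller number, at the catalytic core, in mitochondrial DNA. A few nuclear subunits come as a ubiquitous form and a paralogue known from muscle, testis, lung or low oxygen. Haematopoietic stem cells are known to rely largely on glycolysis, and proliferating progenitors to draw more on oxidative phosphorylation.

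Cells came from 4 mice aged 7 weeks on a C57BL6/129Ola background, 2 of genotype Mbd3flox/flox (control, mice 18218 and 18220) and 2 of genotype Mbd3del/del (null, mice 18217 and 18219). Mbd3 is a subunit of the NuRD chromatin remodelling and deacetylase complex, and the labels name no Cre line or promoter for its deletion. From each mouse 48 lymphoid-primed multipotent progenitors (LMPP), 84 all-lymphoid progenitors (ALP) and 36 B-cell-biased lymphoid progenitors (BLP) were sorted, 672 cells in all. All 3 gates were Lin- Sca-1+ c-Kit+ Flt3hi B220-, and they differed in IL-7Ra (absent from LMPPs, present on ALPs and BLPs) and Ly6D (present on BLPs alone). The comparisons therefore ask how the respiratory chain genes differ across the 3 populations and between mice with and without Mbd3.

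After quality filters 561 cells remained, and 86 of the 111 cells left out were ALPs of mice 18219 and 18220. Kept cells held a median of 1542257 gene counts (range 61894 to 13359577). Counts were summed over the cells of each mouse and population, which made 12 libraries of 53741264 to 137497554 counts, and the mouse was the replicate. Levels are given as CPM, counts scaled to the same total in every library, or, between genes, as CPM per kilobase of transcript. Mbd3 itself was 48.1 to 191 CPM in the 6 control libraries. In the null libraries it was 0.189 to 2.88 CPM, except for the LMPP library labelled null from mouse 18219, at 24.7 CPM. Il7r was 3.72 to 26.7 CPM in LMPPs and 546 to 909 CPM in ALPs and BLPs, and Ly6d was 1501 to 3747 CPM in BLPs and at most 133 CPM elsewhere, which follows the gates. Kit was present in all populations, at 364 to 549 CPM in LMPPs and 61.8 to 137 CPM in the others. No pair of cells held identical counts.

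The 96 genes took 1.84% of all gene counts of the kept cells. Per kilobase the complex III genes had the highest median level (283 CPM per kb), followed by ATP synthase (256), complex IV (199), complex II (149) and complex I (148). Assembly factors were lower, at a median of 29.5 CPM per kb. Sequence shared between genes went with a lower level, and its part in the order was not tested: 16 of the 77 subunit genes other than paralogues share at least 10% of their 50-base stretches with another gene, and their median was 105 CPM per kb against 241 for the other 61. After each cell had been thinned to 50000 counts, the median ATP synthase gene was seen in 95.7% of cells, the median complex IV gene in 92.5%, complex III in 87.2%, complex II in 81.6%, complex I in 81.2% and assembly factor in 32.1%. Between libraries the genes of the set varied about as much as other genes of a like level. The median coefficient of variation of the set over the 12 libraries was 19.0%. It was 20.8% for the 1145 genes at or above the median level of the set and 57.5% for all genes tested.

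**Figure D1:**
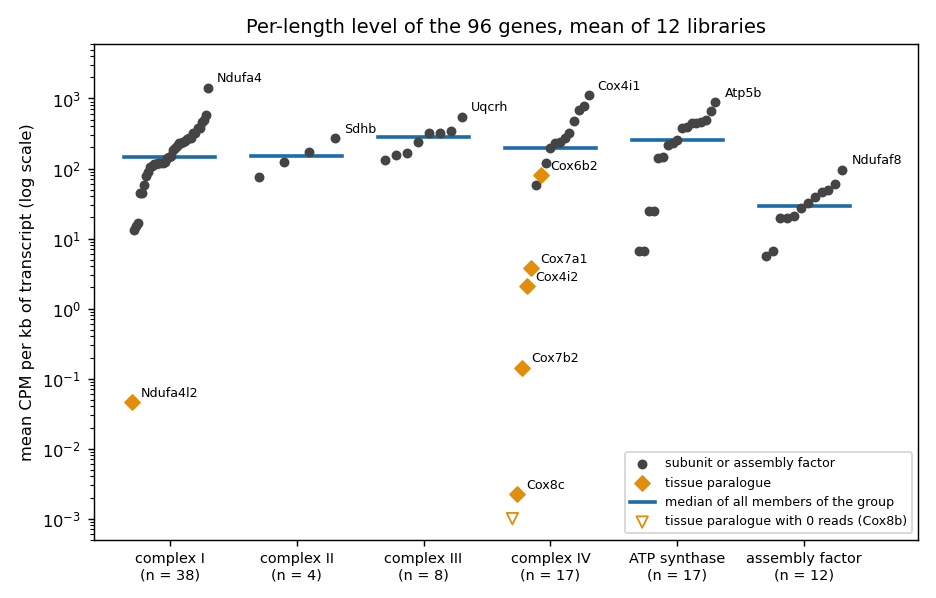
Mean level over 12 libraries of each of the 96 genes, in CPM per kilobase of transcript on a log axis, by complex. Blue lines are medians, orange diamonds are tissue paralogues, and the open triangle at the bottom is Cox8b, which had 0 reads. Subunits of the 5 complexes lie mostly between 100 and 1000 CPM per kb, and assembly factors and paralogues lie lower.

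In complex I the highest level belonged to Ndufa4, at 656 CPM and 1425 CPM per kb. Ndufa4 was named as a complex I subunit and has since been placed in complex IV. Ndufa6 followed at 573 and Ndufa7 at 490 CPM per kb, both accessory subunits. The lowest complex I gene other than the paralogue was Ndufb4, at 13.4 CPM per kb, and 37.0% of its 50-base stretches occur in another gene. In complex II the iron-sulphur subunit Sdhb stood at 272, the membrane anchors Sdhd and Sdhc at 173 and 74.8, and the flavoprotein Sdha at 125 CPM per kb. In complex III the small subunits Uqcrh (546), Uqcr10 (339) and Uqcrq (324) were highest and Uqcrb was lowest (130 CPM per kb, 43.2% of stretches shared). In complex IV Cox4i1 (1124), Cox8a (790) and Cox6b1 (688 CPM per kb) led. In ATP synthase the catalytic beta subunit Atp5b was highest, at 1690 CPM and 882 CPM per kb, the most counts of any gene of the set. Atp5e (673) and Atp5j (500 CPM per kb) came next. Among assembly factors Ndufaf8 (96.0), Sdhaf4 (60.5) and Ndufaf2 (49.0 CPM per kb) were highest and Sdhaf3 (5.61) was lowest.

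The membrane ring of ATP synthase is built of c subunits, and 3 genes encode the same mature c protein with different import peptides. Here nearly all of the c subunit reads came from Atp5g3, at 445 CPM per kb, beside 6.67 for Atp5g1 and 6.66 for Atp5g2. In every library Atp5g3 (248 to 466 CPM) was above Atp5g1 (13.9 to 22.2 CPM) and Atp5g2 (1.80 to 5.43 CPM), with no overlap. Of the 50-base stretches of Atp5g2, 36.7% occur in another gene, and for Atp5g1 11.1%, so the counts of both are uncertain.

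Of the 7 tissue paralogues in the set, 1 was clearly present. Cox6b2, the testis form of a complex IV subunit, reached 80.0 CPM per kb beside 688 for its ubiquitous partner Cox6b1, and it was seen in 212 of 561 thinned cells, against 552 for Cox6b1. Its share of the pair, per length, was 10.4% ± 3.61 (SD, n = 4 mice) in LMPPs, 9.76% ± 3.02 in ALPs and 11.3% ± 5.33 in BLPs, so the populations differed by less than the spread between mice. In control mice 18218 and 18220 Cox6b2 was 18.9 and 32.5 CPM in LMPPs, 18.4 and 26.5 CPM in ALPs and 30.9 and 15.2 CPM in BLPs. In null mice 18217 and 18219 it was 43.2 and 54.5 CPM in LMPPs, 38.4 and 34.3 CPM in ALPs and 54.4 and 50.5 CPM in BLPs. All 6 null libraries were thus above all 6 control libraries. A single cell gave 35.0 and 36.6% of the Cox6b2 reads in the LMPP and BLP libraries of null mouse 18219. In the BLP library of control mouse 18220 it was 40.4%. Levels without these cells were not computed. Thinned cells with a read were 17.1 to 44.1% in control and 35.7 to 61.1% in null libraries, which overlap. With each mouse summed, the log2 ratio of null to control was 0.94 ± 0.21 (SE), with an edgeR p of 0.00869 and an adjusted p of 0.53 over all genes, which does not pass.

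The other paralogues were scarce or not seen. Cox4i2, a form of Cox4 known from lung and low oxygen, was 2.07 CPM per kb against 1124 for Cox4i1 with 32.4% of its 1619 reads in 1 cell. It had a read in 27 of the kept cells, and in 11 after thinning. By library it was 8.49, 1.98, 2.32 and 3.11 CPM in LMPPs (control mice first) and at most 1.47 CPM in any other library. Cox7a1, the muscle form beside Cox7a2, was 3.75 against 242.5 CPM per kb, with a read in 32 cells and in 15 after thinning. Cox7b2 had 69 reads, all in 1 cell, and Ndufa4l2, a partner of Ndufa4 known from low oxygen, had 51 reads. Cox8b, of muscle, had 0 reads and Cox8c, of testis, had 1, against 790 CPM per kb for Cox8a. No fold is given for Cox8b and Cox8c, which lie at or under the floor of 3 reads. One muscle form that the rule leaves out was abundant. Cox6a2 made up 2.80% ± 2.03 (SD, n = 4 mice) of the Cox6a1 and Cox6a2 pair in LMPPs, 50.5% ± 10.7 in ALPs and 62.0% ± 5.15 in BLPs. In LMPPs this share was 1.39 and 0.837% in the control mice and 5.12 and 3.85% in the null mice. A single cell gave 26.8 to 46.5% of the Cox6a2 reads of each LMPP library. Averaged over genotypes, the edgeR log2 fold change of Cox6a2 was 5.38 ± 0.39 (SE, adjusted p = 0.000509) from LMPP to ALP. From LMPP to BLP it was 6.13 ± 0.41 (adjusted p = 0.000181). The null minus control values were -2.83 (edgeR p = 0.00236, adjusted p = 0.94) and -2.25 (edgeR p = 0.00829, adjusted p = 0.72). At these steps edgeR called none of the paralogues inside the rule.

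Summed over all 96 genes, the respiratory chain transcripts were lower in BLPs than in LMPPs. In LMPPs the sum was 18465 and 20578 CPM in the control mice and 21971 and 18721 CPM in the null mice. In ALPs it was 18378, 17911, 17103 and 18658 CPM in the same order, and in BLPs 15273, 17789, 17255 and 16110 CPM. Every BLP library was below every LMPP library, and ALPs overlapped with both. The log2 ratio of BLP to LMPP within a mouse was -0.26 ± 0.06 (SD, n = 4 mice), a fold of 0.834, and all 4 mice were lower. From LMPP to ALP it was -0.14 ± 0.17 (4 of 4 mice lower), and from ALP to BLP -0.12 ± 0.14, lower in 3 of 4. For BLP against LMPP an exact test that flips the signs of the 4 mouse ratios gave p = 0.125. This is the smallest p that 4 mice allow, so the test could not pass. In such sums fewer cells of a type and less RNA per cell cannot be told apart.

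With genes placed by name, the difference was not even across complexes. From LMPP to BLP the summed log2 ratio was -0.42 ± 0.05 (SD, n = 4 mice) for complex III, -0.33 ± 0.15 for ATP synthase, -0.33 ± 0.19 for complex II and -0.26 ± 0.07 for complex I. Ndufa4, since placed in complex IV, is counted here in complex I by its name. In null mice its mean was 962 CPM in LMPPs and 463 CPM in BLPs, where the complex IV sum was 3052 and 2938 CPM. The values of complexes I and IV, and the order of these complexes, thus depend on where Ndufa4 is counted. Sums with it in complex IV were not computed. For complex IV as named the summed log2 ratio was -0.07 ± 0.05, and for assembly factors -0.03 ± 0.32, with 1 of 4 mice lower. The 13 protein genes of the mitochondrial genome went the other way, with a summed log2 ratio of 0.22 ± 0.08 and no mouse lower. Genes of the tricarboxylic acid cycle, which feeds complexes I and II, stood at -0.31 ± 0.08, and glycolysis at -0.88 ± 0.12. Beside these sums, the median share of mitochondrial counts per cell was 5.28 to 6.02% in LMPP libraries and 6.19 to 7.43% in BLP libraries, and the spike-in share was 8.01 to 12.2% and 8.11 to 14.9%. Their part in the result was not tested.

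**Figure D2:**
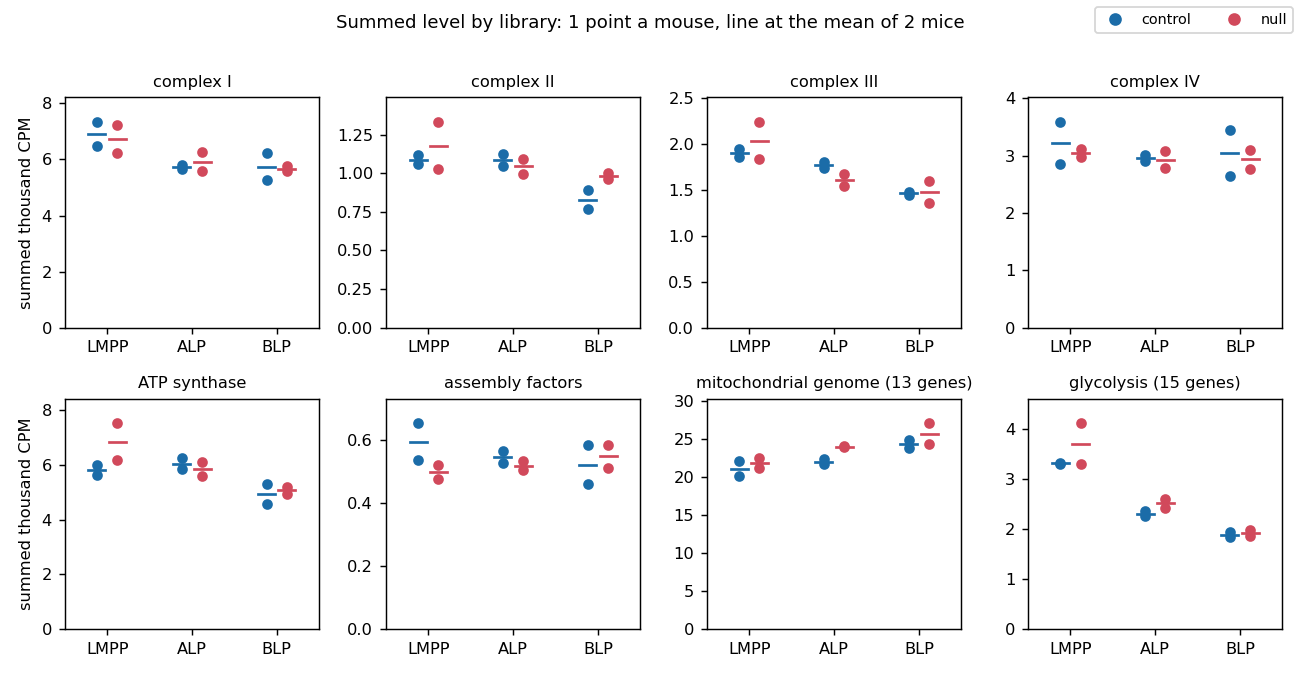
Summed level, in CPM divided by 1000, of the genes of each complex, the assembly factors, the 13 mitochondrial genome genes and 15 glycolysis genes in LMPP, ALP and BLP, with 1 point a mouse (control blue, null red) and a line through the mean of the 2 mice of a genotype. Complex III and glycolysis sums are lower in BLPs than in LMPPs, and the mitochondrial genome sum is higher.

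Gene by gene, 6 of the 92 members tested fell from LMPP to BLP and none rose (edgeR quasi-likelihood, Benjamini-Hochberg adjusted p under 0.05 over 19903 genes). Of all genes tested, 4.71% were called in this comparison and 2.12% were called lower, and the 6 are 6.52% of the members tested. Among 7438 other protein-coding genes tested at 20 CPM or more, 362 were called higher and 267 lower, beside 0 and 6 of 85 members. The 6 are the alpha and beta subunits of the catalytic head of ATP synthase (Atp5a1, Atp5b), both core proteins of complex III (Uqcrc1, Uqcrc2), the complex I core subunit Ndufs7 and Ndufa4. Of the 92, 63 had a log2 fold change below 0 (50.6% of all genes did), with a median of -0.16 beside -0.01 for all genes. At an unadjusted p under 0.05, 19 were lower and 1, Ndufaf8 (log2 fold change 0.64), was higher, where 10.4% and 10.7% of all genes were. Without any overlap between the 4 LMPP and the 4 BLP libraries, 14 were lower and 1 higher, beside 6.32% and 5.73% of all genes.

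Atp5b (ENSMUSG00000025393, chr10:128083273-128090391) was 1755 and 1796 CPM in LMPPs of the control mice and 2501 and 1961 CPM in those of the null mice. In BLPs it was 1299, 1296, 1279 and 1262 CPM in the same order. All BLP libraries were below all LMPP libraries and close to each other, and ALPs, at 1695 to 1946 CPM, overlapped with LMPPs. The log2 fold change was -0.63 ± 0.09 (SE, edgeR adjusted p = 0.00676), a fold of 0.645. Atp5a1 (ENSMUSG00000025428, chr18:77773729-77782869) went from 1020, 931, 1480 and 1261 CPM in LMPPs to 676, 829, 770 and 788 CPM in BLPs. Again the groups did not overlap, and the null LMPP libraries were the highest. Its log2 fold change was -0.60 ± 0.09 (adjusted p = 0.0108).

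Uqcrc2 (ENSMUSG00000030884, chr7:120635176-120659524) was 356, 330, 401 and 369 CPM in LMPPs and 206, 152, 217 and 250 CPM in BLPs, without overlap (log2 fold change -0.83 ± 0.14, edgeR adjusted p = 0.0156). Uqcrc1 (ENSMUSG00000025651, chr9:108936633-108949623) was 468, 429, 633 and 460 CPM in LMPPs and 353, 354, 285 and 262 CPM in BLPs. Here the null mice had the lowest BLP values and 1 null mouse the highest LMPP value (log2 fold change -0.67 ± 0.12, adjusted p = 0.0160). Both core proteins are the large matrix-facing subunits of complex III.

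Ndufa4 (ENSMUSG00000029632, chr6:11900292-11907497) had the largest difference of the 6. It was 745, 1089, 1178 and 747 CPM in LMPPs, 507, 479, 531 and 770 CPM in ALPs and 450, 449, 466 and 459 CPM in BLPs. The BLP libraries were nearly equal, and LMPPs varied most. The log2 fold change was -1.04 ± 0.19 (SE, edgeR adjusted p = 0.0183), a fold of 0.486. Ndufs7 (ENSMUSG00000020153, chr10:80249121-80256794), which helps carry electrons to the quinone site, was 316, 333, 321 and 279 CPM in LMPPs and 173, 227, 216 and 170 CPM in BLPs. Its ALP values, 195 to 220 CPM, already lay below all LMPP values. The log2 fold change was -0.67 ± 0.13 (adjusted p = 0.0279).

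**Figure D3:**
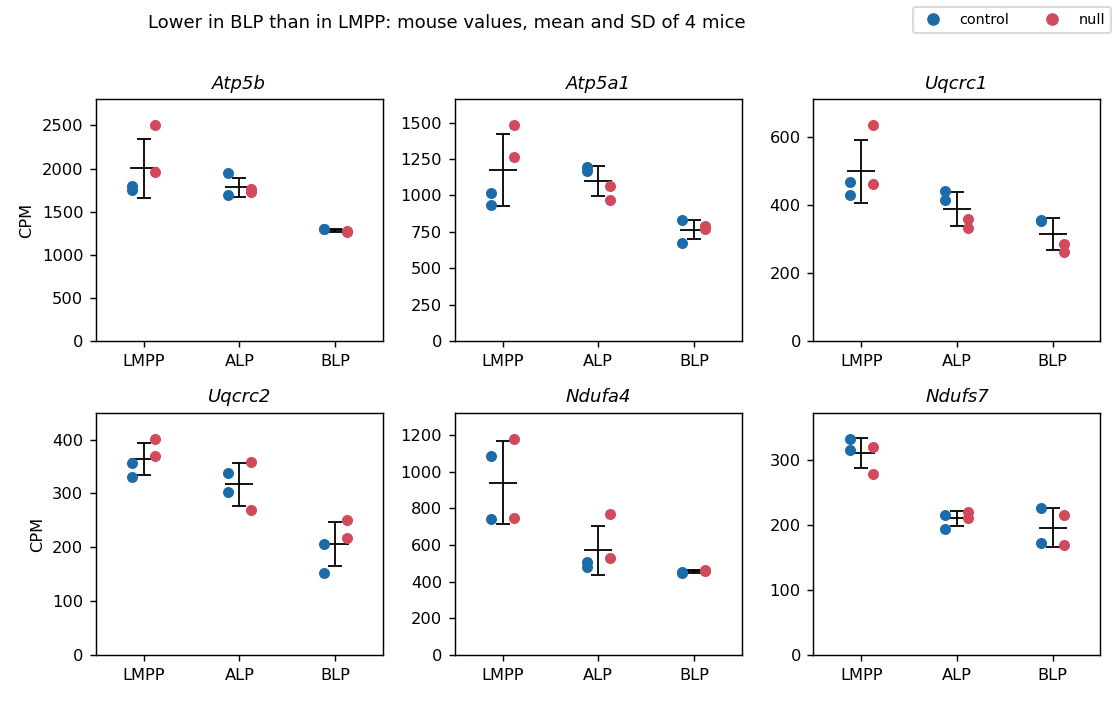
Level in CPM of the 6 genes that fell from LMPP to BLP, with 1 point for each of the 4 mice (control blue, null red) and the mean with SD over the 4 mice. In each panel the 4 BLP values lie below the 4 LMPP values, for Ndufa4 between 449 and 466 against 745 to 1178.

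By complex, the calls were 2 of 8 in complex III, 2 of 17 in ATP synthase and 2 of 37 in complex I, with none in complex II, complex IV or the assembly factors. Here too Ndufa4 is counted in complex I by its name. All 7 nuclear core genes of complex I were below 0 on the log2 scale, and so were all 4 complex II genes, with Sdhd at -0.54 (adjusted p = 0.0675) and Sdhc at -0.51. Next to the threshold were Uqcrh at -0.47 (adjusted p = 0.0655) and Ndufb6 at -0.57 (adjusted p = 0.0667). The subunit with the smallest p among those above 0 was Ndufs5, at 0.48 ± 0.23 (edgeR adjusted p = 0.27). With the mouse as a replicate block, which pairs the populations of the same animals, 6 members were also called, 4 of them shared: Atp5a1 and Uqcrc1 no longer passed (adjusted p = 0.0612 and 0.0525), while Uqcrh and Sdhc did (0.0331 and 0.0475). Leaving out any 1 of the 4 mice left 0 members called (adjusted p 0.0667 to 0.220 over the 6 genes), and 3 were called when the 2 ALP libraries that had lost most cells were left out (Atp5b, Ndufa4 and Uqcrc2).

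Markers of other cell types moved with these populations. Summed myeloid markers (7 genes) were 1058 to 1997 CPM in LMPPs and 154 to 432 CPM in BLPs, plasmacytoid dendritic markers (6 genes) 437 to 659 and 1943 to 3238 CPM, and early B-lineage genes (8 genes) 69.5 to 165 and 1409 to 2285 CPM. Erythroid and megakaryocyte markers (9 genes) were at most 37.3 CPM and macrophage or stromal markers (6 genes) at most 15.2 CPM in any library. Their part in the lower level of the 6 genes was not tested. Genes of the G2 and M phases of the cell cycle (24 genes) summed to 542 to 2047 CPM in LMPPs and 881 to 4239 CPM in BLPs.

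The step from LMPP to ALP gave no member call at an adjusted p under 0.05 in edgeR, where 1.09% of all genes were called. DESeq2 called 3 lower, Ndufs7, Ndufb9 and Ndufa4, and limma-voom called 1. At an unadjusted p under 0.05, 5 were lower and 0 higher (5.52% and 7.68% of all genes). Of the 92 genes 20 were above 0, against 50.4% of all genes, with a median log2 fold change of -0.12. Ndufs7 had the smallest p, with a log2 fold change of -0.57 ± 0.13 (edgeR adjusted p = 0.10). From ALP to BLP no member was called either, with 0.0402% of all genes called, while DESeq2 called Atp5b, Atp5a1 and Uqcrc2 lower and limma-voom called 0. Here 9 were lower and 2 higher at an unadjusted p under 0.05 (5.49% and 4.21% of all genes). Atp5a1 was at -0.52 ± 0.09 (edgeR adjusted p = 0.18), Atp5b at -0.47 ± 0.09 (0.18) and Uqcrc2 at -0.63 ± 0.14 (0.27). Averaged over genotypes, Ndufs7 and Ndufa4 thus had the larger value at the first step, and Atp5a1, Atp5b and Uqcrc2 at the second. In the null mice alone this did not hold for Atp5a1 (-0.43 at the first step and -0.39 at the second), and Ndufa4 stood at -0.57 and -0.49. In control mice the mean of Atp5a1 was higher in ALPs (1180 CPM) than in LMPPs (975 CPM), and Atp5b was at 1821 and 1775 CPM. For Atp5a1 the null minus control value at the first step was -0.71 (edgeR p = 0.00511, adjusted p = 0.94). The difference between the steps was not tested.

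Among the members, longer transcripts had the lower log2 fold changes from LMPP to BLP, and among other genes the relation had the opposite sign. This description was chosen after the values were seen and has no test. Among the 85 members at 20 CPM or more, the 51 with transcripts under 1 kb had a median log2 fold change of -0.03 and 22 were above 0. The 34 longer ones had a median of -0.33 and 4 were above 0. Among the other protein-coding genes at that level, 634 short ones had a median of -0.13 and 6801 longer ones 0.04. Spearman's rho between length and log2 fold change was -0.48 over the 85 members and 0.27 over 7435 other genes. These are across genes, which share the same 12 libraries and are not independent. Of the 6 that fell, Atp5b, Atp5a1, Uqcrc1 and Uqcrc2 have transcripts of 1 kb or more.

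**Figure D4:**
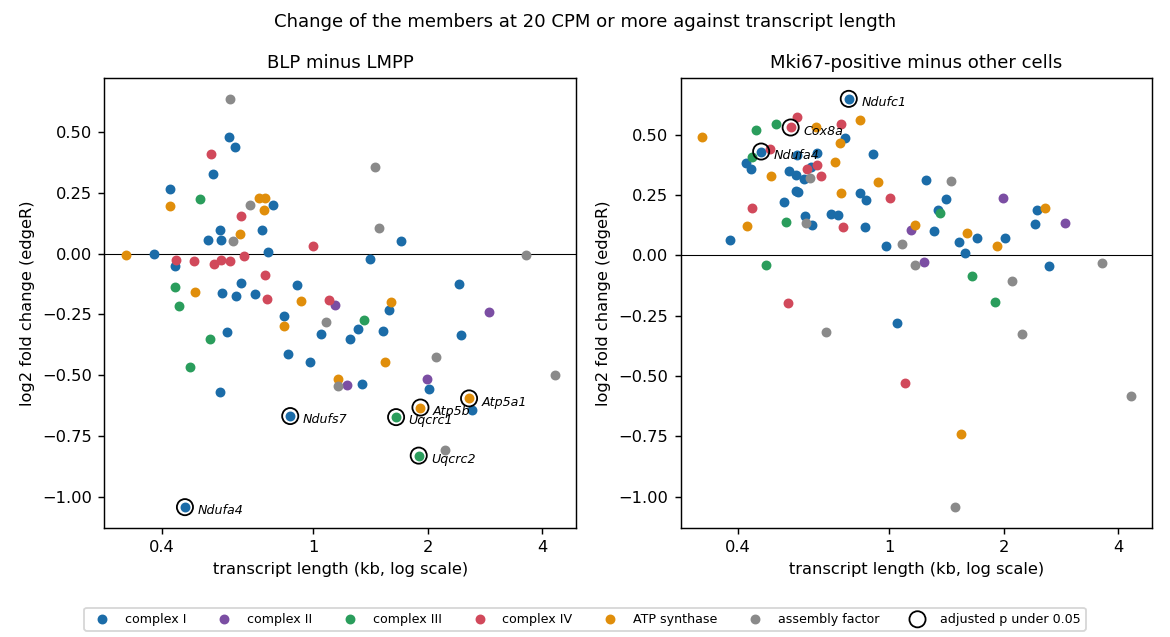
Log2 fold change from LMPP to BLP (left) and of cycling over other cells (right) against transcript length in kilobases on a log axis, for the members at 20 CPM or more. Genes past an adjusted p of 0.05 are circled, and in both panels longer transcripts lie lower, with a Spearman's rho of -0.48 and -0.54.

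Other parts of energy metabolism were read from the same fit. From LMPP to BLP 4.71% of all genes tested were called and 50.6% were below 0. A single call in a list of 14 to 32 genes is near that share of calls. Of 13 mitochondrial genome genes, 12 were above 0 from LMPP to BLP and 3 rose: mt-Nd6 (log2 fold change 0.77 ± 0.10, edgeR adjusted p = 0.00496), mt-Nd2 (0.77 ± 0.11, 0.00757) and mt-Nd4 (0.48 ± 0.09, 0.0259), all complex I subunits. Of 15 tricarboxylic acid cycle genes 12 were below 0 and 1 fell, Idh3b (-0.62 ± 0.13, adjusted p = 0.0341). Of 15 glycolysis genes 14 were below 0 and 5 fell, among them Aldoa (-1.70 ± 0.18, adjusted p = 0.00211) and Pkm (-0.90, adjusted p = 0.00582). Of 32 tested assembly factors outside the rule 17 were above 0 and 1 fell, the complex IV factor Surf1 (-1.31 ± 0.15, adjusted p = 0.00317). Of 14 regulators of mitochondrial genes 10 were above 0 and 1 rose, the transcription factor Yy1 (1.26 ± 0.20, adjusted p = 0.0107).

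RefSeq promoters (assembly GRCm38.p6, 250 bases before to 50 after each annotated start) were matched by symbol for 78 of the 96 genes, with 83 promoters. The motif GCGCANGCG, known for the factor NRF1, which acts on many respiratory genes, was found on either strand in 25 of 83 (30.1%), against 15.2% of the promoters of other genes at 20 CPM or more and 6.25% of all 32851. CCGGAAG, the core bound by ETS family factors, was in 21 of 83 (25.3%), against 21.0% and 8.86%. AANATGGCG, known for YY1, was in 12 of 83 (14.5%), against 6.25% and 2.38%. In the promoters of the set no matches of different motifs overlapped. The stretches shown are from genes that passed in the comparisons given here, with the motif in capitals, read 5′ to 3′ on the gene's strand. Uqcrc1 holds an NRF1 match (chr9:108936668-108936697, plus strand) and Cox8a an ETS match (chr19:7217603-7217632, minus strand). A YY1 match lies just after the annotated start in Ndufs7 (chr10:80249463-80249492, plus strand), Atp5b (chr10:128083313-128083342, plus strand) and Ndufc1 (chr3:51408914-51408943, minus strand). In Cox8a and Atp5b the capitals are the reverse complement of the motif as spelled.
Uqcrc1: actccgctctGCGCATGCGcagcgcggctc
Cox8a: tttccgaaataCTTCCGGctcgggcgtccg
Ndufs7: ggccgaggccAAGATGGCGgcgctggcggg
Atp5b: acccggattcCGCCATGTTgagtcttgtgg
Ndufc1: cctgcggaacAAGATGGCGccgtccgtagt
Ndufa4 held none of the 3 motifs in its promoter, and the 100 bases before its first annotated start (chr6:11907498-11907597, minus strand) are shown for contrast.
Ndufa4: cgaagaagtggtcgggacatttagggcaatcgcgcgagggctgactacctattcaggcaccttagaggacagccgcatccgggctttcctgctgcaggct
A match is a run of letters and not a measured binding site, and the absence of one concerns these windows alone.

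Within genotypes, the change from LMPP to BLP was called for 3 members in the null mice, Atp5b (log2 fold change -0.81, edgeR adjusted p = 0.0276), Atp5a1 (-0.82, 0.0329) and Uqcrc1 (-1.0, 0.0335), and for 0 in the control mice, where Ndufa9 had the smallest p (-1.12, adjusted p = 0.0777). Of all genes, 1.15% and 0.945% were called. DESeq2 called 9 members in the null and 7 in the control mice, and limma-voom 0 and 2. At an unadjusted p under 0.05, 14 members were lower in each genotype, beside 7.07% of all genes in the null and 6.81% in the control mice. The difference between the genotypes itself was called for 0 members and 0% of all genes in edgeR, and for 0 members in DESeq2 and limma-voom. At an unadjusted p under 0.05, 3 members had a higher and 2 a lower value in the null mice (3.62% and 3.16% of all genes). The values nearest to a difference were Ndufa9 at 1.16 (null minus control), Uqcrc1 at -0.66 and Atp5a1 at -0.44, all with an adjusted p of 0.72.

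Between null and control mice edgeR called no member of the set in any population, and DESeq2 called a few. In LMPPs edgeR called 0 of 92 members (0% of all genes), in ALPs 0 (0.00502%), in BLPs 0 (0.01%), and with populations summed 0 of 93 (0%). DESeq2 called 0 in LMPPs and ALPs, 3 in BLPs and 2 with populations summed, and limma-voom called 0 in each. At an unadjusted p under 0.05, 3 members were higher and 2 lower in LMPPs (3.14% and 3.62% of all genes), 0 and 2 in ALPs (2.51% and 1.99%), 6 and 4 in BLPs (4.33% and 4.5%) and 2 and 1 with populations summed (3.34% and 3.7%). The median log2 ratio over members was -0.06, -0.02, -0.03 and -0.04, beside -0.02, 0.00, -0.01 and -0.00 over all genes. The summed level of all 96 genes differed by 0.06 ± 0.14 (log2, SE, 2 mice against 2) in LMPPs, by -0.02 ± 0.07 in ALPs and by 0.02 ± 0.12 in BLPs.

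Of the 96 genes 2 had no overlap between the 6 control and the 6 null libraries: Cox6b2, higher in the null mice as given above (0.291% of all genes), and Sdhaf4, lower in them (0.256%). Sdhaf4 is an assembly factor that helps the flavoprotein Sdha join complex II. It was 38.0 and 53.4 CPM in control LMPPs and 24.2 and 30.7 CPM in null LMPPs. In ALPs it was 56.0 and 59.7 CPM in control and 27.1 and 31.0 CPM in null mice, and in BLPs 48.7 and 71.4 against 25.7 and 29.6 CPM. These libraries come from 2 mice a genotype. The log2 ratio with populations summed was -0.94 ± 0.22 (SE, edgeR p = 0.0112, adjusted p = 0.54), which does not pass, while DESeq2 called it lower.  In LMPPs the smallest p was that of Atp5a1 (0.49 ± 0.13, adjusted p = 0.63), and in BLPs that of Ndufa9 (0.99 ± 0.23, adjusted p = 0.42). The summed G2 and M phase genes differed between the same mice, at 542 to 703 CPM in control and 1001 to 2047 CPM in null LMPPs, 881 to 1448 and 2687 to 4239 CPM in BLPs, and 1527 to 3710 and 1067 to 1851 CPM in ALPs. Cell type markers also differed between control and null ALPs. Early B-lineage genes were 118 to 200 and 586 to 994 CPM, and myeloid markers 325 to 623 and 922 to 990 CPM. Plasmacytoid dendritic markers were 1305 to 2070 and 543.5 to 788 CPM, and T and NK markers (6 genes) 647 to 681 and 543 to 595 CPM. The erythroid and the macrophage lists overlapped there. The part of all these genes in the genotype values was not tested.

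To read the respiratory chain against proliferation, cells of each library were split at 20 CPM of Mki67, the gene of the proliferation marker Ki-67. This placed 164 of 561 cells (29.2%) in the cycling class, and 31 cells lay between 10 and 40 CPM. The share ran from 12.8 to 44.4% over libraries. Of the other cell cycle genes, 22 of 24 G2 and M phase genes and 11 of 22 S phase genes were called higher in the class, measured in the same cells that Mki67 had split.

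The members were mostly higher in cycling cells. The summed level was higher in all 12 libraries, by 0.02 to 0.35 on the log2 scale. The mean over mice was 0.14 ± 0.07 (SD, n = 4 mice), a fold of 1.10. An exact test that flips the signs of the 4 mouse values gave p = 0.125, the smallest p that 4 mice allow. The highest value, 0.35, came from the BLP library of control mouse 18220, which held 6 cycling cells. Taken as the median over cells, the level was higher in 10 of 12 libraries, with a mean over mice of 0.11 ± 0.05, and lower in the LMPP library of null mouse 18217 and the BLP library of control mouse 18218. By mouse it was 0.18 (18217), 0.04 (18218), 0.15 (18219) and 0.18 (18220), so control mouse 18218 was lowest. By population it was 0.12 ± 0.12 (SD, n = 4 mice) in LMPPs, 0.10 ± 0.04 in ALPs and 0.19 ± 0.19 in BLPs, which differ by less than the spread between mice. By complex the mean log2 ratio was 0.20 ± 0.11 for complex IV (higher in 12 of 12 libraries), 0.17 ± 0.07 for complex I (11) and 0.13 ± 0.08 for ATP synthase (9). For complex III it was 0.05 ± 0.09 (9 libraries, 3 of 4 mice higher) and for complex II 0.04 ± 0.14 (9 libraries, 2 of 4 mice higher). The ratio was -0.11 ± 0.13 for assembly factors (5 of 12), 0.00 ± 0.12 for the mitochondrial genome (6 of 12) and -0.16 ± 0.16 for glycolysis (3 of 12).

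**Figure D5:**
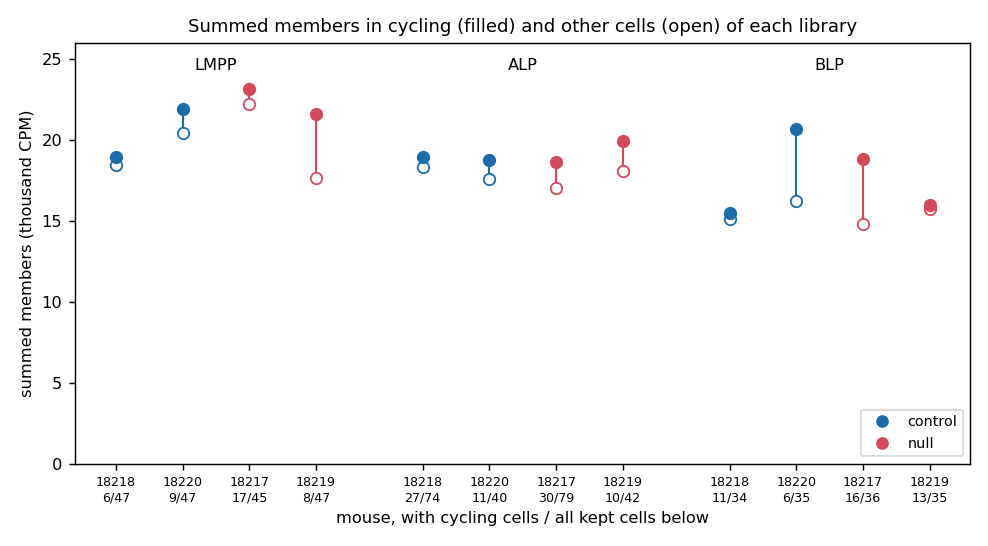
Summed level of the 96 genes, in CPM divided by 1000, in cycling cells (filled points, Mki67 of at least 20 CPM) and other cells (open points) of each of the 12 libraries, with the number of cells beneath. The filled point is above the open one in each library.

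By gene, 3 of 91 members tested rose in cycling cells and none fell (edgeR with the library as block, adjusted p under 0.05 over 13696 genes), beside 2.33% of all genes called and 1.99% called higher. At 20 CPM or more, 189 of 7438 other protein-coding genes tested were called higher and 26 lower, beside 3 and 0 of 85 members. Ndufa4 was 793 ± 303 CPM in cycling and 587 ± 235 CPM in other cells (SD, n = 12 libraries) and higher in 12 of 12 libraries, with a log2 fold change of 0.43 ± 0.09 (SE, adjusted p = 0.0239). Its highest cycling library reached 1326 CPM and its lowest 481 CPM. Cox8a was 579 ± 274 against 376 ± 41.8 CPM, also in 12 of 12 (0.53 ± 0.12, edgeR adjusted p = 0.0363), and its cycling values ran from 400 to 1411 CPM. Ndufc1, a small membrane subunit of complex I, was 81.1 ± 27.2 against 50.6 ± 10.7 CPM, in 11 of 12 (0.65 ± 0.16, edgeR adjusted p = 0.0458). The cycling values of all 3 overlapped with those of other cells, so the difference is one within libraries. These 12 libraries come from 4 mice. Summed to 8 libraries, 1 for each mouse and class, none of the 3 passed (edgeR adjusted p = 0.232 for Ndufa4, 0.216 for Cox8a and 0.262 for Ndufc1).

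Of the 91 members 73 were above 0, against 37.7% of all genes, with a median of 0.19 beside -0.15. At an unadjusted p under 0.05, 28 were higher and 2 lower (6.29% and 7.4% of all genes). Above 0 were 35 of 37 complex I genes, 16 of 17 ATP synthase genes, 10 of 13 complex IV genes and 5 of 8 complex III genes, but 4 of 12 assembly factors. The 2 lower ones were Cox7a2l, a factor of respiratory supercomplexes (-0.53, edgeR adjusted p = 0.0850), and Ndufaf3 (-1.04). Short transcripts led here too: 48 of the 51 members under 1 kb were above 0 (median 0.33) and 21 of the 34 longer ones (median 0.06), while other genes of both lengths had medians of -0.00 and -0.11. Ndufa4 passed in both comparisons, higher in cycling cells and lower in BLPs. The share of cycling cells was 12.8 to 37.8% in LMPP libraries and 17.1 to 44.4% in BLP libraries.

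The classes also differed in depth. Cycling cells had a lower spike-in share in 12 of 12 libraries (median 7.68 against 11.1%), more nuclear genes detected in 12 of 12 (8860 against 8155) and more gene counts per spike-in count in 12 of 12 (12.0 against 7.99). Per spike-in count the summed members were higher by 0.45 ± 0.16 on the log2 scale (SD, n = 4 mice). After thinning to 50000 counts, 71.8 members were detected in the median cycling cell and 66.5 in the median other cell, higher in 11 of 12 libraries. The part of depth in the result was not tested. Without the split, Spearman's rho between a cell's summed members and its G2 and M phase genes was 0.11 to 0.44 within the 12 libraries (median 0.28). With Mki67 it was -0.00 to 0.37 (median 0.08), and with the spike-in share the median was -0.36. All of these are over 34 to 79 cells that share a library and are divided by the same totals. The call counts moved with the method: 0 members were called without mouse 18217 or 18218, 1 (Ndufc1) without 18219 and 2 without 18220, of which Cox8a alone was among the 3. With the class set at 100 CPM of Mki67, Cox8a alone of the 3 passed (adjusted p = 0.0693 for Ndufa4 and 0.0619 for Ndufc1). With cells thinned to equal counts Ndufc1 did not pass (adjusted p = 0.165), and a fit without the low-count filter called 0.

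Over the 12 libraries, the genes whose level was most like that of the summed members were Rpl7l1 (Pearson's r = 0.95), Bbip1 (0.94), Actb (0.92), Ppif (0.91) and Gm8566 (0.91), among 7963 genes at 20 CPM or more. The nearest member was Ndufa4 (0.88), followed by Atp5c1 (0.87) and Ndufs7 (0.86), each of which is part of the sum. The points share mice and populations.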

How the data were processed

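Single-cell RNA was amplified and sequenced cell by cell, per the labels' protocols, and the deposited values are counts of reads per gene made by the authors with GSNAP and HTSeq 0.5.3p3 on mm10 (from the submitters' processing notes). The strand setting and gene annotation used are not given in these sources, and a count is a read, not a molecule. Of all entries 43.2% fell on genes, 6.13% on spike-ins, 33.0% were not aligned, 11.6% had no feature and 6.08% were ambiguous, and only gene rows were tested.

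Cells with under 50000 nuclear counts, under 1000 nuclear genes, over 20% mitochondrial or over 50% spike-in counts were left out, and the rest summed by mouse and population. edgeR 4.0.16 (R 4.3.3; TMM, filterByExpr, quasi-likelihood, 6 groups) gave log2 fold changes and p-values, adjusted over all genes tested. The 4 libraries of whole mice and 24 libraries split by Mki67 were fitted likewise, the latter with the library as block. DESeq2 1.42.0, limma 3.58.1 (voom) and the other alternatives are in the closing section. The steps were tested on simulated data. Symbols were found for 45143 of 46078 gene identifiers, and coordinates were taken from GENCODE for GRCm38 (mm10). The smallest library held 53741264 counts. Fold changes of the gate and genotype fits carry SEs from the spread between mice within groups. Those of the cycling fit carry SEs from the spread between the 12 libraries, which come from 4 mice.

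Members and lists were chosen with earlier results of these data known. Named are the 3 highest and the lowest gene of each complex per length, all tissue paralogues with partners, the c subunit genes, every member past an adjusted p of 0.05, up to 3 members a direction with the smallest p among those at 20 CPM or more without overlap between mice, and members of other lists past the threshold. Population samples of a mouse come from the same animal. The correlation of their deviations from the group means was 0.034 to 0.069 (r).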

Additional observations from a re-analysis of the deposited data

Results flagged for a closer look

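Reads also lay on processed pseudogenes of the set, which the comparisons do not use. Over all 672 cells, before any filter, 11 such rows held 143046 reads, 0.762% of the 18776889 reads on the 96 genes, which is above the 3 reads that a count of 0 allows. The largest were Ndufs6b (36245 reads), Uqcrh-ps1 (31602), Cox6c2 (30740), Uqcrh-ps2 (15200) and Ndufa11b (14974). Whether these are transcripts of the copies or reads of the parent genes was not tested.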

How the results depend on the processing

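Members called were 3 (DESeq2) against 0 for genotype in BLPs, and 2 (DESeq2) against 0 with populations summed. From LMPP to ALP, against 0, they were 3 (DESeq2), 1 (limma-voom), 1 (no filter on low counts) and 1 (cells thinned to equal counts). From ALP to BLP, against 0, they were 3 (DESeq2) and 1 (thinned cells). From LMPP to BLP, against 6, they were 16 (DESeq2), 10 (thinned cells), 3 (leaving out the ALP libraries of mice 18219 and 18220) and 0 to 0 without 1 mouse. The mouse as replicate block gave 6 there, 0 at both single steps, and changed the calls of Atp5a1, Uqcrc1, Uqcrh and Sdhc as given beside them and of no other member. In cycling cells, against 3, they were 19 (DESeq2), 8 (limma-voom), 10 (cells split by G2 and M phase genes), 0 (no filter), 0 (8 libraries per mouse and class), 4 (Mki67 of at least 100 CPM, 1 of them shared), 2 (thinned cells, both shared) and 0 to 2 without 1 mouse. All genes called from LMPP to BLP were 938, and 3375 (DESeq2), 1542 (thinned cells), 466 (without those ALP libraries) and 69 to 132 without 1 mouse. For the summed level, null against control in BLPs was -0.035 (log2) as a median over cells and -0.043 with all cells, against 0.02. Without 1 mouse it ran from -0.058 to 0.17 in LMPPs, -0.085 to 0.040 in ALPs and -0.093 to 0.13 in BLPs. The cause of these differences was not tested, apart from the smaller number of mice or libraries in the last settings. Among the main results 122 recomputed values kept their direction and side of the threshold or stayed near the main count, 13 were higher counts, 10 lower counts and 7 reversed. For single genes 801 stayed, 33 gained and 72 lost a call, and 0 reversed. Leaving out a mouse leaves 1 sample in its genotype, which is assumed to vary like the other groups.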

Other observations

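Some glycolysis and mitochondrial genome genes passed in edgeR already at the first gate step, where edgeR called no member of the set. Of all genes tested from LMPP to ALP, 1.09% were called and 50.4% were above 0 on the log2 scale. At this step 13 of 15 glycolysis genes were below 0 and 2 fell (edgeR). Aldoa, the aldolase that splits fructose bisphosphate, was 806 to 851 CPM in LMPPs, 240 to 366 CPM in ALPs and 186 to 354 CPM in BLPs, and its log2 fold change from LMPP to ALP was -1.41 ± 0.18 (SE, adjusted p = 0.00858). Pkm, which makes pyruvate, was 390 to 531 CPM in LMPPs and 267 to 292 CPM in ALPs (-0.70 ± 0.12, edgeR adjusted p = 0.0351). Of the 13 mitochondrial genome genes 12 were above 0, and mt-Nd6 rose from 358 to 441 CPM in LMPPs to 480 to 652 CPM in ALPs (0.54 ± 0.10, edgeR adjusted p = 0.0428). In cycling cells Aldoa was lower in 12 of 12 libraries (-0.86 ± 0.14, edgeR adjusted p = 0.00286), while Pkm was at 0.02 ± 0.17 and did not pass.

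Of the genes that belong with the chain but fall outside the rule by name, Cyc1 ran from 192 to 329 CPM and Usmg5 from 30.2 to 53.5 CPM over the 12 libraries, and neither was called in edgeR at a gate step or in cycling cells.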
